A study of Mus musculus with 19 samples.

Results

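The genes described here are 7 genes of MHC class II antigen presentation, *Cd74*, *H2-Aa*, *H2-Ab1*, *H2-Eb1*, *H2-DMa*, *H2-DMb1* and *Ciita*, taken by gene symbol from the 53558 genes of each deposited table. All 7 were among the 13986 genes that passed the filter on low counts and were tested. *Ptprc*, which encodes the leukocyte antigen CD45, was read beside them, since immune cells also express class II genes. The RNA came from neoplastic cells of lung tumors that had grown for 17 weeks. The hosts of all 3 groups had the alleles R26LSL-tdTomato and H11LSL-Cas9 on a C57BL/6J:129 mixed background and were, per the study's methods, 6 to 12 weeks old when given virus. Every mouse thus carried the Cre-dependent tdTomato reporter and Cas9, and received a lentiviral vector in the airway that expresses Cre together with its sgRNAs, so any lung cell the virus enters can recombine. The sgInert group (Lenti-sgNeo1/sgNT/sgNeo2/Cre, 7 libraries) carried control sgRNAs only, the sgCebpa/b/d group (Lenti-sgCebpa/sgCebpb/sgCebpd/Cre, 7 libraries) targeted a trio of C/EBP transcription factors, and the sgLkb1 group (Lenti-sgLkb1/Cre, 5 libraries) targeted *Lkb1*, whose mouse symbol is *Stk11*. Cells positive for CD45, CD31, F4/80 or Ter119 and dead cells were removed by sorting. Cas9 cuts leave a mixture of alleles, so each sample is a pool of cells that need not all have lost the target.

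MHC class II molecules hold peptides from endocytosed proteins at the cell surface for CD4+ T cells. An alpha chain and a beta chain form the peptide groove, the invariant chain CD74 blocks it on the way through the cell, and H2-DM exchanges the remnant of CD74 for a peptide in the endosome. CIITA is the co-activator on which transcription of these genes depends; it does not bind DNA itself but docks on RFX, CREB and NF-Y factors, which sit on the X and Y boxes of class II promoters. Alveolar type II cells, a cell of origin of lung adenocarcinoma, express class II without being immune cells, and C/EBP factors are regulators of alveolar type II identity.

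The class II genes measured here, apart from *Cd74* and *Ciita*, lie together on chromosome 17 of GRCm38: *H2-DMa* from 34119541 to 34139101, *H2-DMb2* from 34143307 to 34151555, *H2-DMb1* from 34153072 to 34160230, *H2-Ab1* from 34257689 to 34269419, *H2-Aa* from 34282744 to 34287823 on the minus strand, *H2-Eb1* from 34305867 to 34316674 and *H2-Eb2* from 34325665 to 34341412. *Ciita* lies on chromosome 16 from 10480059 to 10528418. All are protein-coding genes in the GENCODE annotation, and all but *H2-Aa* are on the plus strand. RefSeq promoters were matched for 8 of 11 class II genes looked up, and not for *H2-Ab1*, *Cd74* or *Ciita*. The stretch just before the RefSeq start of 5 of them is shown. They let the box letters of a chain gene, the H2-DM pair and the low class II genes be read side by side. The gene spans above are from GENCODE, which starts *H2-DMb1*, *H2-DMb2* and *H2-Eb2* further upstream. The stretch of *H2-DMb2* thus lies within its span, and those of *H2-DMb1* and *H2-Eb2* reach into theirs. The sequences are written 5′ to 3′ in the direction of the gene, from GRCm38.p6. On the strand of the gene, the capitals mark ATTGG, the core of the Y box, and the X box letters AACNNATG. In *H2-Aa*, which lacks AACNNATG, they mark GACGTCA, letters of the X2 box, which is a different element.
*H2-Aa*, chr17:34287824-34287958, minus strand: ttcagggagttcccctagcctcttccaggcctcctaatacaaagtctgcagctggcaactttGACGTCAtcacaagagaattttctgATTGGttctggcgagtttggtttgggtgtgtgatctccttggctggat
*H2-Eb1*, chr17:34305732-34305866, plus strand: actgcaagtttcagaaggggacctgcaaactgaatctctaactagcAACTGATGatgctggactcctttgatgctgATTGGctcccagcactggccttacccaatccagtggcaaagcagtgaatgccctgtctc
*H2-Eb2*, chr17:34325540-34325674, plus strand: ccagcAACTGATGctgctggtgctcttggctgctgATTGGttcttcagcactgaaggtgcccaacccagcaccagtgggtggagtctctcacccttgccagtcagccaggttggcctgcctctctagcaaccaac
*H2-DMb1*, chr17:34153056-34153190, plus strand: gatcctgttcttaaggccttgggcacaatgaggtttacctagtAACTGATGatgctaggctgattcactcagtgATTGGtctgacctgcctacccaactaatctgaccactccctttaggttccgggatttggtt
*H2-DMb2*, chr17:34145114-34145248, plus strand: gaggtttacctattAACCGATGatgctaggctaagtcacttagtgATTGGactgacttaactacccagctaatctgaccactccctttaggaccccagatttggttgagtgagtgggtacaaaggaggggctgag

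Over the 250 bases before the start, searched on both strands, all 8 genes held ATTGG, against 33.85% of the 32851 mouse promoters in the table. It began 48 bases before the start in *H2-Aa*, 59 in *H2-Eb1*, 61 in *H2-DMb1*, 90 in *H2-DMb2* and 100 in *H2-Eb2*. *H2-DMa*, with 2 promoters in the table, held it only in the second, 198 bases before that start. AACNNATG, a motif chosen after the promoters were read, was in 5 of the 8 genes (*H2-Eb1*, *H2-DMb1*, *H2-DMb2*, *H2-Eb2* and *H2-Ob*) and in 7.71% of all promoters. It stood 20 to 23 bases ahead of ATTGG in each of the 5. GACGTCA was in *H2-Aa* alone and in 2.78% of all promoters, where its 2 matches, 1 on each strand, overlap. TGNGTCA was in *H2-DMa* and *H2-Oa* (12.96% of all promoters). Neither GCAACAG (4.46%) nor TTGCNNAA, the letters of a C/EBP site (9.56%), was in any of the 8. A match in these letters is a description of the sequence, and binding was not measured.

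The total count was 3935861 to 7791705 per sgInert library, 2760731 to 9944134 per sgCebpa/b/d library and 6028922 to 9234683 per sgLkb1 library. *Stk11*, on chromosome 10 from 80115803 to 80130682, was lower in all 5 sgLkb1 libraries than in every sgInert library (log2 fold change −1.24, SE 0.17, edgeR adjusted p = 1.07e-04), at 42.3% of the sgInert level. The transcript of *Cebpa* was not lower in the sgCebpa/b/d group but higher, at 71.9 to 125 CPM against 42.7 to 68.8 CPM in sgInert, with no overlap (log2 fold change 0.73, SE 0.14, edgeR adjusted p = 0.00148). *Cebpb* (1.16, SE 0.37, edgeR adjusted p = 0.0524) and *Cebpd* (0.20, SE 0.28, edgeR adjusted p = 0.742) were not called. An RNA level does not measure whether a cut gene still gives a working protein, so loss of the C/EBP factors was not checked by these data. The titles of 10 libraries carry an animal number that starts with MT and those of 4 sgInert libraries one that starts with ZR, while 3 sgCebpa/b/d libraries (replicates 5 to 7) and 2 sgLkb1 libraries (replicates 1 and 5) carry none. Those 5 libraries stood apart in immune genes, as given below. Some MT-numbered libraries share an animal (2 sgInert, 3 sgCebpa/b/d and 2 sgLkb1). The libraries are thus not all independent, and p-values measure a spread that is in part within an animal. All sgLkb1 libraries came from females, and the 3 sgCebpa/b/d libraries without a number are that group's males.

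Class II genes were abundant in these cells whichever virus had been used. On the TPM scale, which corrects for gene length, *Cd74* had 1230.0 ± 110 TPM (SD, n = 7) in sgInert, followed by *H2-Ab1* at 791 ± 70.8 and *H2-Aa* at 555 ± 52.3. *H2-Eb1* was lower at 109 ± 22.1 TPM. *H2-DMb1*, at 44.3 ± 12.6, and *H2-DMa*, at 29.7 ± 5.81, overlapped each other over the libraries, while *Ciita* had 16.3 ± 1.63 TPM. This order held in 17 of the 19 libraries, with *H2-DMa* above *H2-DMb1* in one of the others and *Ciita* above *H2-DMa* in the remaining one.

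The comparison of sgLkb1 with sgInert asks how class II genes stand in tumors in which *Lkb1* was targeted. In sgLkb1 libraries 4 of the 7 members were lower, the invariant chain *Cd74* and the chain genes *H2-Aa*, *H2-Ab1* and *H2-Eb1*, by 36.0% to 49.6%. None was higher, and none passed a log2 fold change of 1 as well (1.14% of all genes tested were lower by this rule). Of all genes tested, 5.78% were called in this comparison, 2.97% as lower and 2.81% as higher, with a call being an edgeR adjusted p under 0.05. The 3 members that were not called, *H2-DMa*, *H2-DMb1* and *Ciita*, had negative fold changes as well. The median log2 fold change of the 7 was −0.64, against −0.01 over all genes tested.

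*H2-Aa* encodes the alpha chain of I-A, and its level is given as CPM, a count scaled to the effective size of its library. In sgInert libraries it ran from 372 to 426 CPM with a median of 387. The sgLkb1 libraries had 179, 230.0, 233, 184 and 217 CPM for replicates 1 to 5. Every sgLkb1 library lay well below every sgInert library, and the spread within each group was small beside the gap. The log2 fold change was −0.93 (SE 0.09, 95% interval −1.12 to −0.74, edgeR adjusted p = 1.85e-06), a decrease of 47.6%, and by p it ranked 7 among all genes tested.

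Its partner *H2-Ab1*, the beta chain of I-A, moved alongside. It had 308 to 367 CPM (median 343) in sgInert and 148, 184, 192, 151 and 177 CPM in the sgLkb1 libraries. The log2 fold change was −0.99 (SE 0.10, 95% interval −1.20 to −0.78, edgeR adjusted p = 2.65e-06). Groups did not overlap, and replicates 1 and 4 were the lowest sgLkb1 libraries for both chains. *H2-Eb1*, the beta chain of I-E, had 70.4 to 102 CPM (median 76.5) in sgInert and 41.8, 43.3, 58.5, 43.7 and 46.7 CPM in sgLkb1. Its log2 fold change was −0.82 (SE 0.13, edgeR adjusted p = 4.49e-04), again with no overlap.

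*Cd74* had 903 to 1093 CPM (median 1026) in sgInert and 565, 659, 713, 624 and 658 CPM in sgLkb1 libraries. Here too all sgLkb1 libraries lay below all sgInert libraries, but the decrease was smaller, at a log2 fold change of −0.64 (SE 0.09, 95% interval −0.82 to −0.47, edgeR adjusted p = 6.80e-05). Groups that do not overlap, with sgLkb1 lower, were found for these 4 members and for 2.00% of all genes tested.

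*H2-DMa* and *H2-DMb1* encode the chains of the peptide exchanger. *H2-DMa* had 20.7 to 39.6 CPM (median 32.2) in sgInert and 19.4, 21.8, 26.5, 25.0 and 21.6 CPM in sgLkb1. *H2-DMb1* had 24.6 to 51.2 CPM (median 43.5) and 29.5, 26.8, 33.4, 28.4 and 23.9 CPM. The groups overlapped for both, because the sgInert libraries themselves were widely spread. Their log2 fold changes of −0.43 (SE 0.16, edgeR adjusted p = 0.121) and −0.45 (SE 0.16, edgeR adjusted p = 0.119) did not pass the threshold, with 95% intervals from −0.75 to −0.10 and from −0.79 to −0.11. *H2-DMb1* passed it without sgInert replicate 2, which was the lowest sgInert library for this gene (−0.54, edgeR adjusted p = 0.0389).

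*Ciita* had 38.2 to 55.9 CPM (median 46.6) in sgInert and 32.2, 34.6, 48.1, 27.5 and 47.0 CPM in sgLkb1 libraries. Replicates 3 and 5 lay within the sgInert range and the others below it. The log2 fold change was −0.32 (SE 0.15, 95% interval −0.63 to 0.00, edgeR adjusted p = 0.271).

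**Figure D1:**
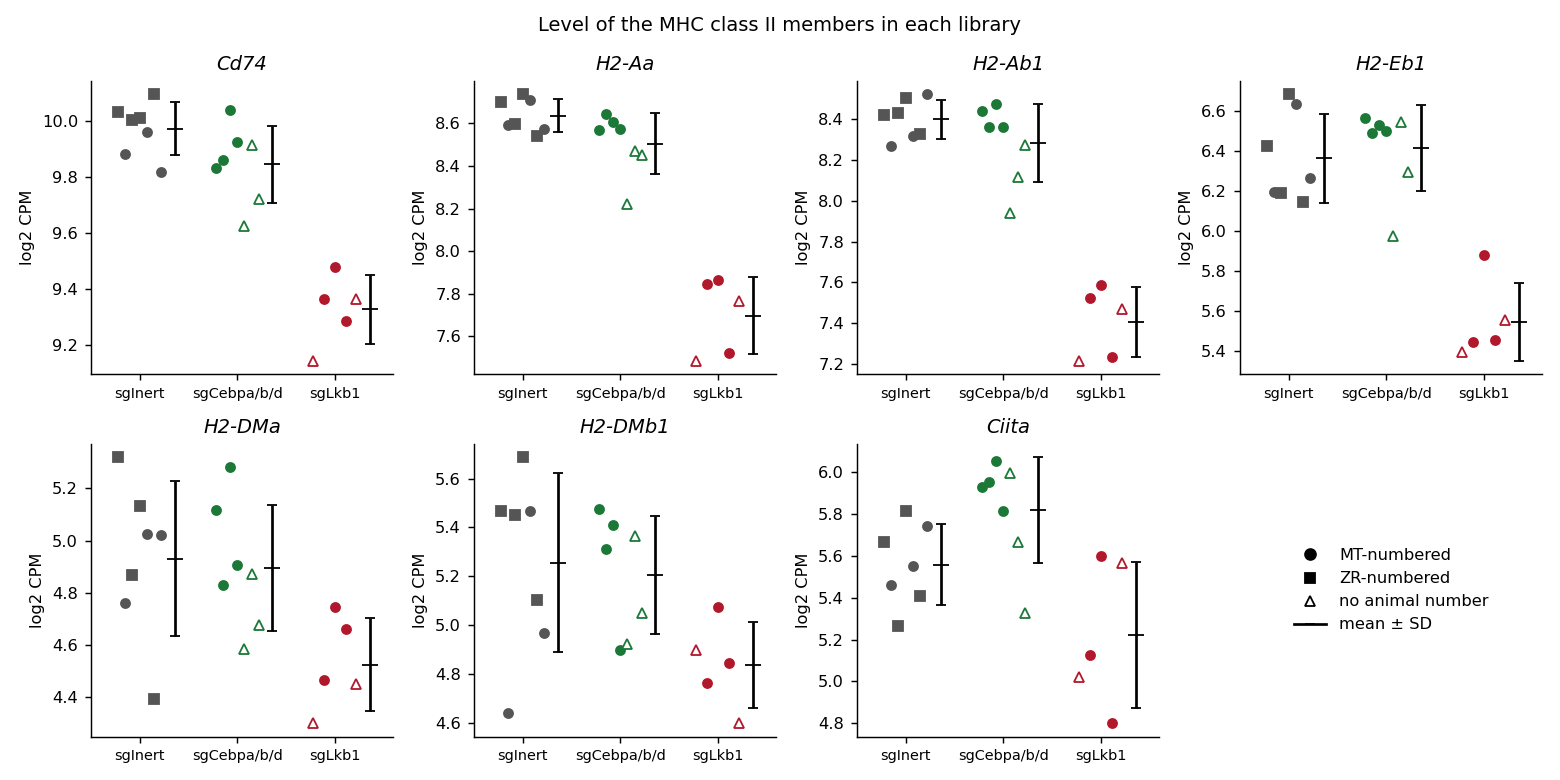
Level of each class II member in log2 CPM (y axis, a separate range in each panel) in the 7 sgInert, 7 sgCebpa/b/d and 5 sgLkb1 libraries (x axis); symbols give the title series and bars the mean ± SD. The sgLkb1 libraries lie below all others for *Cd74*, *H2-Aa*, *H2-Ab1* and *H2-Eb1*, while the groups overlap for *H2-DMa*, *H2-DMb1* and *Ciita*.

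The less-studied class II beta chain genes *H2-DMb2* and *H2-Eb2* were lower by more than any member. *H2-DMb2*, a near-identical neighbour of *H2-DMb1*, had 44 to 124 counts (median 51) in sgInert and 12, 16, 24, 35 and 8 counts in sgLkb1 libraries. In CPM this was 8.49 to 16.8 (median 11.7) against 1.38, 2.51, 3.64, 3.44 and 1.17. The groups did not overlap, and the log2 fold change was −2.31 (SE 0.32, edgeR adjusted p = 1.14e-04), which corresponds to 20.2% of the sgInert level. *H2-Eb2* had 10 to 68 counts (median 23) in sgInert and 9, 3, 4, 14 and 14 counts in sgLkb1 libraries. Its log2 fold change was −2.11 (SE 0.59, edgeR adjusted p = 0.0354) with overlapping groups, and this call was lost without sgInert replicate 1, 4 or 5 or sgLkb1 replicate 1, 2, 3 or 4 (adjusted p up to 0.0963). *H2-Oa* and *H2-Ob*, which encode the inhibitor of H2-DM, had at most 3 and 4 counts in any library, and *H2-Ea-ps* had 0 in all 19.

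The estimation of counts divides reads between *H2-DMb1* and *H2-DMb2*, so their separate values are uncertain. With both copies summed, the log2 fold change was −0.73 (edgeR adjusted p = 0.00632) in sgLkb1 against sgInert, so the call for the H2-DM beta chain depends on whether the copies are kept apart. *H2-DMb2* was 1.66 ± 0.47 log2 units (SD, n = 7) below *H2-DMb1* in sgInert and 3.49 ± 0.55 (SD, n = 5) below it in sgLkb1 libraries, without overlap (2-sided exact permutation test, p = 0.00253, adjusted p = 0.0101 over 12 tests). That p is the smallest that 792 assignments allow. In the promoters shown above the pair share ATTGG and the pattern AACNNATG at the same spacing of 23 bases. The pattern reads AACTGATG in *H2-DMb1* and AACCGATG in *H2-DMb2*.

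**Figure D2:**
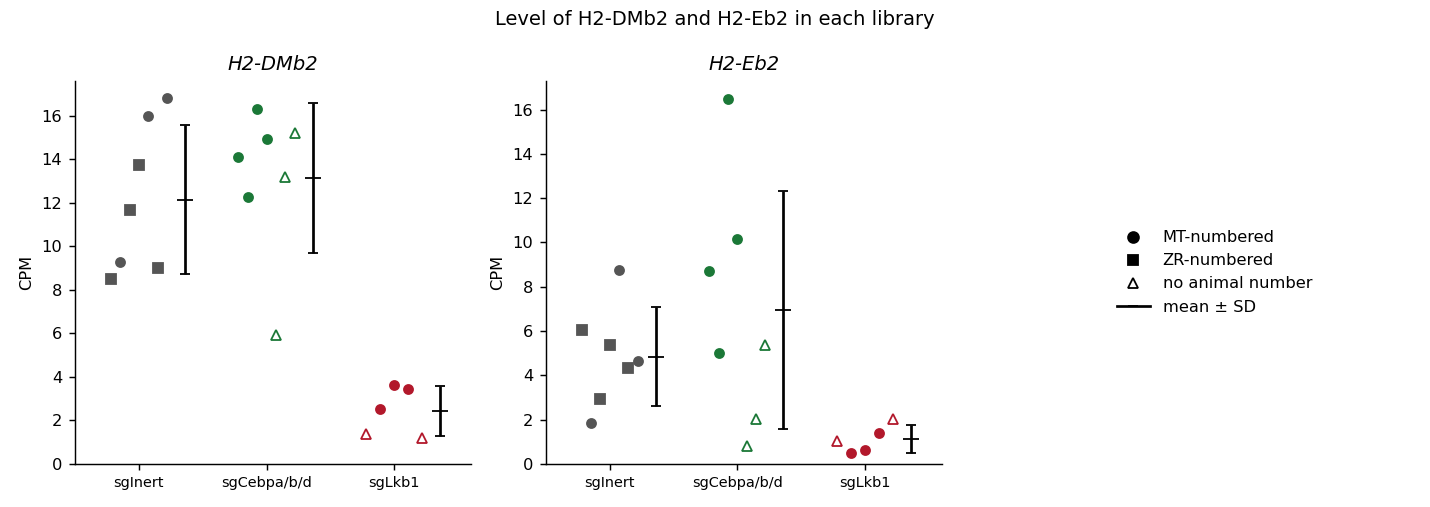
CPM of *H2-DMb2* and *H2-Eb2* (y axis, from 0) in each library of the 3 groups (x axis); symbols give the title series and bars the mean ± SD. The sgLkb1 libraries have 1.17 to 3.64 CPM of *H2-DMb2*, below every other library, and 0.470 to 2.04 CPM of *H2-Eb2*, which overlaps the other groups.

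The comparison of sgCebpa/b/d with sgInert asks the same of tumors in which C/EBP factors were targeted, with no fall of their transcripts to check the targeting by. None of the 7 members was called by edgeR, although 10.1% of all genes tested were, and none had an unadjusted p under 0.05. DESeq2 and limma also called 0 of 7. The log2 fold changes ran from −0.13 to 0.27, with a median of −0.07 against 0.02 over all genes tested.

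*H2-Aa* had 298 to 400.0 CPM (median 379) in sgCebpa/b/d libraries, which overlapped the sgInert libraries. Its log2 fold change was −0.13 (SE 0.08, 95% interval −0.30 to 0.04, edgeR adjusted p = 0.376). *H2-Ab1* had 245 to 356 CPM (median 328) and a log2 fold change of −0.11 (SE 0.09, 95% interval −0.29 to 0.08, edgeR adjusted p = 0.511). For both chains the lowest library was replicate 5, and the 4 MT-numbered libraries lay within the sgInert range.

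*Cd74* had 789 to 1052 CPM (median 929) and a log2 fold change of −0.12 (SE 0.08, 95% interval −0.28 to 0.03, edgeR adjusted p = 0.358). *H2-Eb1* had 62.7 to 94.1 CPM (median 90.2), and its log2 fold change of 0.05 had a 95% interval from −0.19 to 0.29. The intervals of these 4 genes lie above the decrease estimated for the same gene in sgLkb1 libraries. The H2-DM genes had log2 fold changes of −0.05 (*H2-DMa*, SE 0.14) and −0.07 (*H2-DMb1*, SE 0.15). *Ciita* had 39.8 to 65.9 CPM (median 60.5), and 5 of the 7 libraries lay above the highest sgInert library. Its log2 fold change was 0.27 (SE 0.14, 95% interval −0.02 to 0.56, edgeR adjusted p = 0.251). *H2-DMb2* (0.11, SE 0.26) and *H2-Eb2* (0.50, SE 0.48) were not called, and their intervals were wide.

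The groups with targeted genes were also compared with each other, since a call against sgInert in one and not in the other does not show that they differ. Against sgLkb1, 5 of the 7 members were higher in sgCebpa/b/d libraries, *H2-Aa*, *H2-Ab1*, *H2-Eb1*, *Cd74* and *Ciita*. Of all genes tested, 5.96% were called in this comparison, 2.83% as higher. The log2 fold changes were 0.81 for *H2-Aa* (SE 0.09, edgeR adjusted p = 7.22e-06) and 0.88 for *H2-Ab1* (SE 0.10, edgeR adjusted p = 8.06e-06). *H2-Eb1* differed by 0.87 (SE 0.13, edgeR adjusted p = 1.74e-04) and *Cd74* by 0.52 (SE 0.08, edgeR adjusted p = 4.71e-04). The call for *Cd74* was lost with limma on TPM values (0.31, limma adjusted p = 0.120). In these 4 genes every sgCebpa/b/d library lay above every sgLkb1 library, which held for 2.22% of all genes tested. None of the 5 differed by a log2 fold change above 1, as 2.80% of all genes tested did in either direction.

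*Ciita* was the member with overlapping libraries that was still called, with a log2 fold change of 0.59 (SE 0.15, 95% interval 0.27 to 0.90, edgeR adjusted p = 0.0234). This call was lost without sgLkb1 replicate 1, 2 or 4 (adjusted p up to 0.0869). *H2-DMa* and *H2-DMb1* differed by 0.38 each (SE 0.16 and 0.16, edgeR adjusted p = 0.180 and 0.213). *H2-DMb2* and *H2-Eb2* differed by 2.42 (SE 0.32, edgeR adjusted p = 4.88e-05) and 2.61 (SE 0.60, edgeR adjusted p = 0.00969). The 3 comparisons share libraries in pairs and are not independent of each other.

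**Figure D3:**
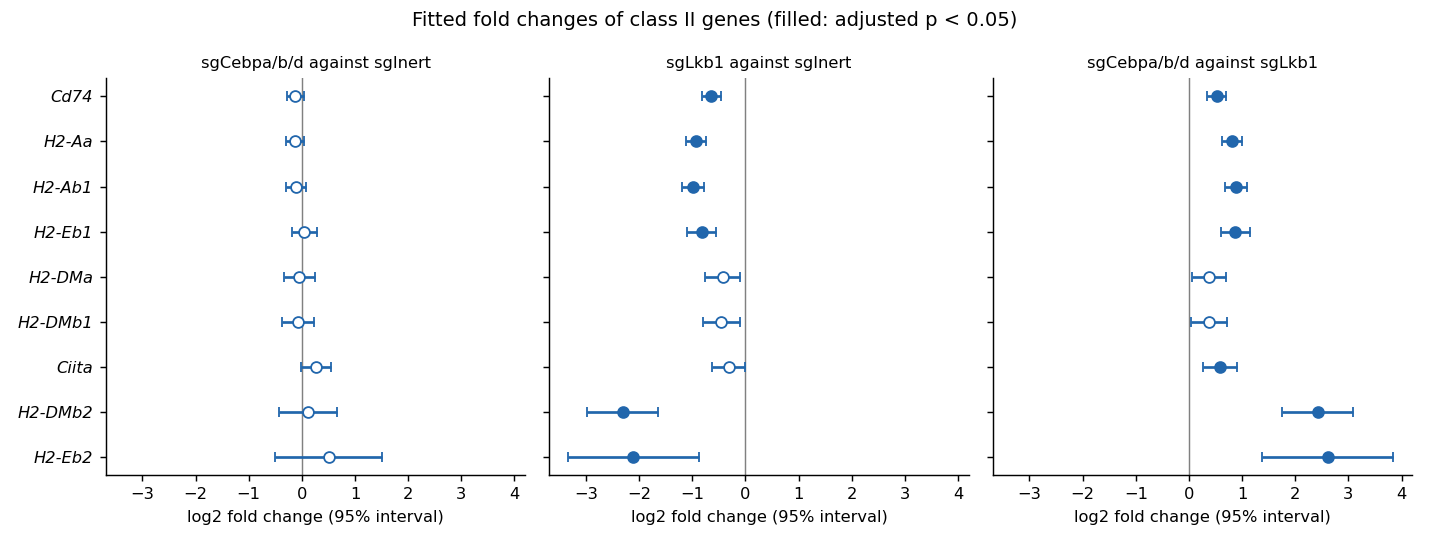
Fitted log2 fold changes (x axis) of the 7 members, *H2-DMb2* and *H2-Eb2* (y axis) in the 3 comparisons; bars are 95% intervals and filled points have an edgeR adjusted p under 0.05. In sgCebpa/b/d against sgInert all points lie between −0.13 and 0.50 and none is filled, while in the other comparisons *Cd74* and the chain genes are filled.

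Members were not lower by equal amounts in sgLkb1 libraries. Differences of log2 CPM between members within a library, which do not depend on the scaling of the library, were compared by 2-sided exact permutation tests. These differences were chosen after the fold changes had been seen. For *H2-Ab1* relative to *H2-Aa* no difference was detected, at −0.24 ± 0.11 (SD, n = 7) log2 units in sgInert and −0.29 ± 0.02 (SD, n = 5) in sgLkb1 (exact permutation p = 0.326, adjusted p = 0.489 over 12 tests). *Cd74* exceeded *H2-Aa* by 1.34 ± 0.11 log2 units in sgInert and by 1.63 ± 0.09 in sgLkb1 (exact permutation p = 0.00505, adjusted p = 0.0126). The mean of *H2-DMa* and *H2-DMb1* lay 3.42 ± 0.23 log2 units below the mean of *H2-Aa* and *H2-Ab1* in sgInert and 2.87 ± 0.20 below it in sgLkb1, with no overlap (exact permutation p = 0.00253, adjusted p = 0.0101).

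*Ciita* also stood closer to the chain genes. It was 2.96 ± 0.15 log2 units (SD, n = 7) below the mean of *H2-Aa* and *H2-Ab1* in sgInert and 2.33 ± 0.24 (SD, n = 5) below in sgLkb1 libraries, with no overlap (exact permutation p = 0.00253, adjusted p = 0.0101). In sgCebpa/b/d libraries it was 2.58 ± 0.28 (SD, n = 7) below, a difference from sgInert of 0.39 (exact permutation p = 0.00524, adjusted p = 0.0126). Among MT-numbered libraries the differences for *Ciita* from sgInert were 0.49 in sgLkb1 (3 against 3 libraries) and 0.34 in sgCebpa/b/d (4 against 3). These tests ignore that some libraries share an animal, which can make p too small.

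**Figure D4:**
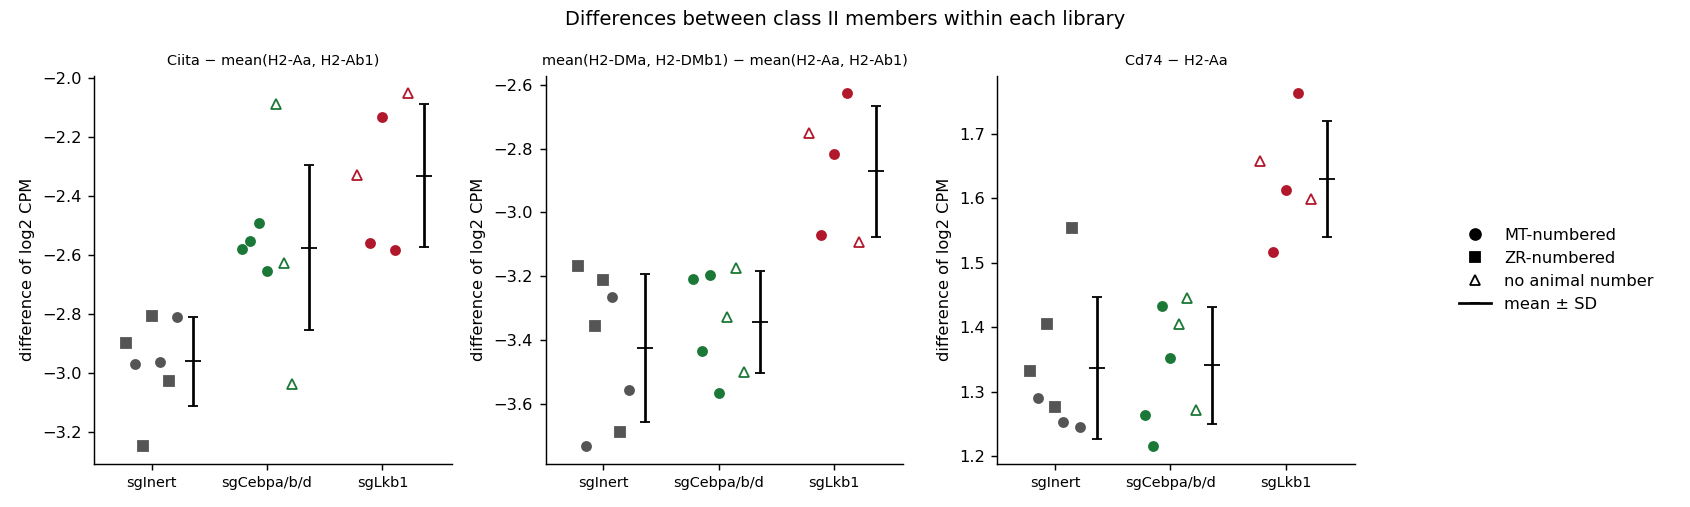
Differences of log2 CPM between members within a library (y axis) in the 3 groups (x axis); symbols give the title series and bars the mean ± SD. In sgLkb1 libraries *Ciita* and the H2-DM genes lie closer to the mean of *H2-Aa* and *H2-Ab1* than in any sgInert library.

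*Ptprc* was read as a check for leukocytes. It had 0 to 20 counts in the sgInert libraries, 0 to 11 in the MT-numbered sgCebpa/b/d libraries and 2 to 6 in the MT-numbered sgLkb1 libraries. Libraries without an animal number had 204, 192 and 265 counts (sgCebpa/b/d replicates 5, 6 and 7) and 370 and 53 counts (sgLkb1 replicates 1 and 5). Within the sgCebpa/b/d and sgLkb1 groups *Ptprc* thus separated libraries by title. No sgInert library lacked an animal number, so title and virus cannot be fully told apart in the comparisons with sgInert. The log2 fold changes of *Ptprc* against sgInert were 3.78 with sgCebpa/b/d (SE 1.28, edgeR adjusted p = 0.0658) and 3.17 with sgLkb1 (SE 1.33, edgeR adjusted p = 0.189). Without sgLkb1 replicate 1 the latter was 1.03. The former passed the threshold with DESeq2, with no filter on low counts and without sgInert replicate 4, sgCebpa/b/d replicate 1, 2 or 3 or sgLkb1 replicate 1 (adjusted p down to 0.0367). In bulk RNA, fewer cells of a type and less RNA per cell cannot be told apart.

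Marker lists of other cells were summed per library. For 10 leukocyte genes the summed level was 1.42 to 10.01 CPM in the MT-numbered, 3.78 to 29.2 in the ZR-numbered and 43.3 to 89.4 in the 5 other libraries. For 13 macrophage genes it was 9.26 to 38.8, 19.4 to 278 and 197 to 1099.8 CPM in the same order. By group the macrophage sum was 9.26 to 278, 21.7 to 1099.8 and 23.2 to 472 CPM in sgInert, sgCebpa/b/d and sgLkb1, and the leukocyte sum 1.42 to 29.2, 1.65 to 89.0 and 6.49 to 89.4 CPM. Dendritic cell genes (8 in the files) summed to 6.71 to 11.3, 3.96 to 25.4 and 5.64 to 11.9 CPM in the 3 groups, and B cell genes (7 in the files) to 4.14 to 11.6, 6.02 to 15.7 and 11.1 to 18.2. T cell genes (7 in the files) summed to at most 5.04 CPM. The highest macrophage sums came largely from 1 gene, *Chil3*, at up to 979 CPM in a library. *Cd79b*, at 3.60 to 13.8 CPM, was present in every library and made up much of the B cell sums. edgeR called 0 of the 5 leukocyte, 8 macrophage, 2 dendritic cell and 1 B cell genes tested in any comparison, while no T cell gene passed the filter. Against sgInert, 2, 4, 1 and 0 of them had an unadjusted p under 0.05 in sgCebpa/b/d and 2, 1, 1 and 0 in sgLkb1. DESeq2 called 1 leukocyte and 1 macrophage gene and limma 1 macrophage gene in sgCebpa/b/d, and both called no gene of these 4 lists in sgLkb1. Of 2 neutrophil genes tested, edgeR called *Retnlg* as higher in sgCebpa/b/d than in sgInert libraries, and DESeq2 and limma called 1 each in both groups, while edgeR called 0 in sgLkb1 (1 at an unadjusted p under 0.05). Under 10 counts in every library were 3 of 10 leukocyte, 1 of 13 macrophage and 3 of 8 dendritic cell genes. The same held for 2 of 7 B cell, 4 of 7 T cell and 1 of 6 neutrophil genes. Among these, *Cd209a*, *Cd3g* and the neutrophil marker *Ly6g* were at 0 in all 19 libraries. The other genes of these lists reached 10 counts or more in at least 1 library.

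Stromal lists were summed in the same way. For 5 endothelial genes the sum was 8.85 to 42.9 CPM in sgInert libraries. With sgCebpa/b/d it was 11.5 to 230.1 CPM, and with sgLkb1 37.8 to 171.8 CPM. Among MT-numbered libraries it was 23.3 to 42.9 CPM in sgInert, 11.5 to 45.0 with sgCebpa/b/d, which overlaps, and 37.8 to 81.6 with sgLkb1, while the 3 unnumbered sgCebpa/b/d libraries had 150.3 to 230.1 CPM. Over all libraries edgeR called 4 of the 5 as higher in sgCebpa/b/d, as did DESeq2, while limma called 0. In sgLkb1 edgeR called 0 of them, where 4 had an unadjusted p under 0.05, DESeq2 called 1 and limma 2. For 5 fibroblast genes the sum was 6.56 to 110.1, 47.2 to 194.2 and 65.9 to 183.6 CPM, and *Dcn*, which encodes decorin, was called by edgeR as higher in both groups against sgInert. Among MT-numbered libraries the fibroblast sum was 6.56 to 16.8 CPM in sgInert. It was 47.2 to 170.5 CPM with sgCebpa/b/d and 65.9 to 176.7 CPM with sgLkb1. These sums did not overlap with sgInert in either group. The part of these cells in the class II differences was not tested.

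In sgLkb1, *H2-Aa* was 179 and 217 CPM in the libraries with 42.7 and 7.72 CPM of *Ptprc*, and 184 to 233 CPM in those with 0.197 to 0.910 CPM. In sgCebpa/b/d, *H2-Aa* was 298 to 354 CPM in the 3 libraries with 32.5 to 44.3 CPM of *Ptprc*, and 379 to 400.0 CPM in the 4 libraries with at most 1.86 CPM. In both of these groups the highest *H2-Aa* level was in a library with an animal number. In sgInert, replicate 4 had the most *Ptprc* (4.66 CPM) and also the most *H2-Aa* (426 CPM). *Ctss*, the cathepsin that trims the invariant chain in antigen-presenting cells, had 166 to 343 counts in the 5 unnumbered libraries, against 0 to 71 in the 14 numbered ones.

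Over all 19 libraries, deviations from the group means had Pearson's r with *Ptprc* from −0.48 (*H2-Aa*) to −0.05 (*H2-DMb1*). No member passed the threshold (permutation test, adjusted p from 0.243 to 0.807 over 7 relations). Without the 2 libraries farthest in *Ptprc*, r ran from −0.42 (*H2-Ab1*) to 0.17 (*Ciita*). *Ptprc* levels fall into separate clusters, so these values mix libraries with and without an animal number. Among the 14 libraries with an animal number, a set chosen after seeing the data, r ran from 0.34 to 0.55 over the 7 members. The highest, for *H2-Ab1*, had r = 0.55 (permutation p = 0.0243, adjusted p = 0.170 over 7 relations) and Spearman's rho = 0.53 (permutation p = 0.0413, adjusted p = 0.146). No member passed the adjusted threshold. Without the 2 of these 14 libraries farthest from the median of *Ptprc*, r ran from −0.31 (*H2-DMb1*) to 0.38 (*H2-Ab1*). Among the 10 MT-numbered libraries it ran from −0.23 (*H2-DMb1*) to 0.45 (*H2-Ab1*, permutation p = 0.135).

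**Figure D5:**
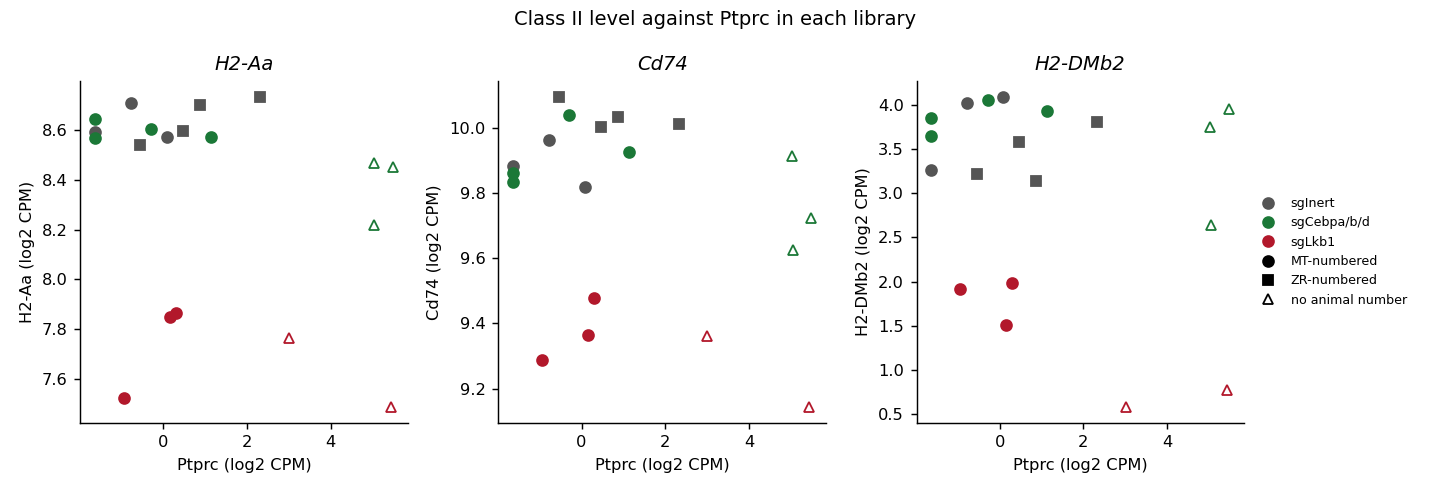
Log2 CPM of *H2-Aa*, *Cd74* and *H2-DMb2* (y axes) against log2 CPM of *Ptprc* (x axis) in the 19 libraries, with color for the virus and symbols for the title series. The 5 libraries without an animal number lie at 3.01 to 5.48 on the *Ptprc* axis, all others at or below 2.32, and the sgLkb1 libraries are lowest for each gene on both sides of that gap.

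The decrease in sgLkb1 was also called within the MT-numbered libraries, where *Ptprc* had at most 11 counts. These are 3 sgInert and 3 sgLkb1 libraries, and in each group 2 of them share an animal. The fit treats them as independent, which can make p too small. There the log2 fold changes against sgInert were −0.88 for *H2-Aa* (edgeR adjusted p = 1.28e-04), −0.93 for *H2-Ab1* (edgeR adjusted p = 1.58e-04), −0.79 for *H2-Eb1* (edgeR adjusted p = 0.00606) and −0.52 for *Cd74* (edgeR adjusted p = 0.00336). *H2-DMb2* was at −2.13 (edgeR adjusted p = 6.64e-04) and *H2-Eb2* at −2.57 (edgeR adjusted p = 0.0262). *H2-DMb1* stood at −0.19 and *Ciita* at −0.39, neither called. With the *Ptprc* level of each library as a covariate the same 4 members were called, at −0.90, −0.95, −0.80 and −0.62 for *H2-Aa*, *H2-Ab1*, *H2-Eb1* and *Cd74*. With sex as a covariate they were −1.02, −1.06, −0.96 and −0.68.

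Other genes of the pathway gave few calls. Among 8 transcription factor genes of the class II promoter (*Ciita*, *Rfx5*, *Rfxap*, *Rfxank*, *Nfya*, *Nfyb*, *Nfyc* and *Creb1*), edgeR called 0 in either comparison with sgInert, with 1 unadjusted p under 0.05 in each. DESeq2 called 1 in sgCebpa/b/d and limma none. *Ciita* was the one gene of this list called between sgCebpa/b/d and sgLkb1. In sgLkb1 against sgInert the list had log2 fold changes from −0.51 to 0.14 and a median of −0.05.

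Interferon gamma is the classical inducer of *Ciita*. Of 7 genes of this signal that were tested, edgeR, DESeq2 and limma called 0 in sgLkb1 against sgInert, and none had an unadjusted p under 0.05. Between sgCebpa/b/d and sgLkb1 all of these counts were 0 as well.

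Of 10 genes of endosomal processing, *Ctsl*, a cathepsin that can degrade the invariant chain, was higher in sgLkb1 than in sgInert libraries, opposite in direction to the chain genes. It had 129 to 160.5 CPM against 79.2 to 138 CPM, with a log2 fold change of 0.49 (SE 0.12, edgeR adjusted p = 0.0158). *Ctsd*, an aspartic protease of the lysosome, had a log2 fold change of −0.65 in sgCebpa/b/d against sgInert (SE 0.13, edgeR adjusted p = 0.00213), at 88.2 to 107 against 98.1 to 213 CPM. Between the targeted groups both proteases were lower with sgCebpa/b/d (−0.59 for *Ctsl* and −0.58 for *Ctsd*, edgeR adjusted p = 0.00348 and 0.0157). Of 4 tested genes of class II turnover and co-stimulation, edgeR called 0 in each comparison, with 1 unadjusted p under 0.05 in each. DESeq2 called none of them, and limma called 1 in sgLkb1 against sgInert and 1 between the groups with targeted genes.

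MHC class I presentation, which every nucleated cell uses, served as a neighbouring pathway. edgeR called 0 of its 13 genes in any comparison, with 1, 1 and 2 at an unadjusted p under 0.05 in sgCebpa/b/d against sgInert, sgLkb1 against sgInert and sgCebpa/b/d against sgLkb1. limma called none, and DESeq2 called 1 in the last of these only. The median log2 fold change in sgLkb1 against sgInert was −0.04, with a range from −0.95 to 0.98, so single genes of this list are not shown to be unchanged. For *B2m* every sgLkb1 library lay below every sgInert library, at 355 to 468 against 569 to 1349 CPM. The smallest edgeR adjusted p of the list in this comparison was 0.0835.

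Markers of alveolar type II cells were expressed in all groups, with *Sftpc*, the surfactant protein C gene, at 20131 to 41527 TPM. Against sgInert, edgeR called 7 of 12 such markers as lower with sgCebpa/b/d and 7 with sgLkb1, where DESeq2 called 8 and 8 and limma 5 and 2, with median log2 fold changes of −0.41 and −0.43. The class II chain genes were called lower against sgInert in sgLkb1 only, and the direct comparison of both groups is given above.

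Outside the 7 members, the genes whose log2 CPM was most like the mean z-score of the members over the 19 libraries were *Adam22* (Pearson's r = 0.92), *H2-DMb2* (0.89), *Prps2* (0.89), *Aldh2* (0.89) and *Reps2* (0.87). These values are a description, since the libraries share groups and title series. The genes were picked by likeness to members that were low in sgLkb1 libraries. Their own fold changes follow in part from that choice and are no separate support. In sgLkb1 against sgInert the log2 fold changes were −1.26 for *Adam22*, −1.50 for *Prps2*, −1.01 for *Reps2* and −0.43 for *Aldh2*. In sgCebpa/b/d against sgInert the 5 genes ran from −0.06 to 0.26.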

How the data were processed

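Bulk RNA-seq of sorted neoplastic cells gave 19 libraries (7 sgInert, 7 sgCebpa/b/d and 5 sgLkb1), grouped by their labels. The authors aligned reads with STAR 2.6.1d to mm10 and estimated levels with RSEM 1.2.30. The deposited expected counts are estimated counts per gene, unnormalized, which RSEM divides between similar genes. The deposited TPM values correct the same estimates for length. The authors' deposited normalized counts and DESeq2 1.26.0 fold changes and p-values were not used.

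Expected counts were rounded and filtered by filterByExpr (minimum count 10, minimum total 15), leaving 13986 of 53558 genes. TMM scaling and glmQLFTest (edgeR 4.0.16, R 4.3.3) used a single model fitted to the 19 libraries, with no covariates, with Benjamini-Hochberg adjustment over all genes tested and a call at an adjusted p under 0.05. Log2 CPM used a prior count of 2. The scripts were checked on simulated data. Low depth limits low genes most, and counts give counting error only. Chi-square per gene between replicates was at least 7.34, so no libraries were duplicates. Correlations with *Ptprc* used 100000 permutations within groups, 2-sided (SciPy 1.17.1). Promoters are from RefSeq (GRCm38.p6) and gene positions from GENCODE.

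Members and gene lists were chosen with earlier results of these data known. Genes named are the 7 members, *Ptprc*, called genes of the pathway and marker lists (at most 4 a list and comparison) and the 5 genes most like the members. Other names (*Stk11*, the C/EBP genes, *Ctss*, *Sftpc*, *B2m*, *Chil3*, *Cd79b*, *H2-DMb2* and *H2-Eb2* where not called, markers at 0) were added after their values were seen. Alternatives covered scaling (DESeq2 size factors, library totals), tests (DESeq2 1.42.0, limma 3.58.1 on log2(TPM + 1)), filter, gene length, sex, title series, *Ptprc*, replicate number, animals and libraries entered. Some alleles and genes are not reported here.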

Additional observations from a re-analysis of the deposited data

Results flagged for a closer look

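Each member, *H2-DMb2*, *H2-Eb2* and *Ptprc* was examined in each group for a library far from the others by Dixon's 95% criterion, in 30 sets of values, of which chance flags about 1 in 20. In 1 of them a library stood apart. *H2-DMb2* was 2.64 log2 CPM in sgCebpa/b/d replicate 5, against 3.65 to 4.06 in the other 6 libraries of its group. That library also had 5 counts of *H2-Eb2*, the lowest of its group. Without it, the comparisons of *H2-DMb2* kept their calls.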

How the results depend on the processing

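In sgLkb1 against sgInert, *Cd74*, *H2-Aa*, *H2-Ab1*, *H2-Eb1* and *H2-DMb2* stayed called and lower under all 14 alternatives and without any one library. Over the 14 alternatives the log2 fold changes ran from −0.68 to −0.43 for *Cd74* (adjusted p up to 0.0334), −1.02 to −0.72 for *H2-Aa*, −1.06 to −0.77 for *H2-Ab1* and −0.96 to −0.60 for *H2-Eb1* (adjusted p up to 0.0242). The number of members called without one library was 4 to 5 in this comparison, 4 to 5 in sgCebpa/b/d against sgLkb1 and 0 to 0 in sgCebpa/b/d against sgInert. With a log2 fold change above 1 required as well, 0 members were called in sgLkb1 against sgInert and 0 in sgCebpa/b/d against sgLkb1, and limma on log2(TPM + 1) called 3 in the latter. Without the 5 libraries that have no animal number, an alternative chosen after seeing the data, 4 members were called in sgLkb1 against sgInert.

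*H2-Eb2* lost its call in sgLkb1 against sgInert under limma (−1.13), title series (−1.74), *Ptprc* as a covariate (−1.87) and libraries of 1 animal summed (−1.98). *Ciita* lost its call in sgCebpa/b/d against sgLkb1 under limma (0.28), gene length offsets (0.41) and animals summed (0.58). In the same comparison *Cd74* lost its call under limma (0.31) and *H2-Eb2* with animals summed (2.08). *Ptprc* in sgLkb1 against sgInert passed the threshold with sex as a covariate (4.92). Signs turned only for values that were not called. In sgCebpa/b/d against sgInert these were *H2-DMa* with library totals (0.0122), limma (0.0570), length offsets (0.0519), title series (0.0886), *Ptprc* (0.00610), MT-numbered libraries (0.0906), without the 5 libraries (0.0877) and without one library (−0.126 to 0.0247). *Cd74* turned with title series (0.0211) and MT-numbered libraries (0.0184), and *H2-Ab1* with title series (0.00682), MT-numbered libraries (0.0299) and without the 5 libraries (0.0112). *H2-DMb1* turned with title series (0.214), MT-numbered libraries (0.204) and without one library (−0.160 to 0.00401). *Ptprc* in sgCebpa/b/d against sgLkb1 turned to −2.14 with sex as a covariate. The cause was not tested.

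Replicate numbers did not pair the samples, since 17 same-numbered pairs had correlations from −0.15 to 0.23, 2 of them over 0.1. With the replicate block, 4, 0 and 5 members were called in sgLkb1 against sgInert, sgCebpa/b/d against sgInert and sgCebpa/b/d against sgLkb1, and 873, 1293 and 661 genes of all tested. Library totals and limma moved the median of all genes in sgLkb1 against sgInert to 0.14 and 0.18 on the log2 scale, and limma moved it to −0.15 in sgCebpa/b/d against sgLkb1. Genes called overall changed by more than 1.5 times from 1412 to 926 (title series) and 881 (without the 5 libraries) in sgCebpa/b/d against sgInert, from 809 to 1258 (sex), 532 (animals summed) and 525 (without the 5 libraries) in sgLkb1 against sgInert, and from 833 to 466 (animals summed) and 455 (without the 5 libraries) in sgCebpa/b/d against sgLkb1. Low counts limit *H2-Eb2* and *H2-DMb2* most.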
